A study of Rattus norvegicus with 6 samples.

Results

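The genes described here belong to the leukotriene and prostaglandin pathways. Their members were every array probe whose transcript accession is a RefSeq transcript of Ltc4s, Alox5, Alox5ap, Lta4h, Cysltr1, Ptgs1, Ptgs2, Ptges, Hpgd or Ptgds, which gave 14 of 61657 non-control probes, for 10 of 15285 named genes. Renal cortex RNA was taken from 6 male rats of the Sprague-Dawley strain and measured on 1-colour Agilent arrays, with 1 array per animal. The NDMA group (n = 3) received N-nitrosodimethylamine, a nitrosamine whose oxidation product methylates DNA, at 4 mg/kg/day over 4 weeks, and the water group (n = 3) was given water for the same time. All animals were bought at 5 weeks of age. NDMA animal 1 and the 3 water animals shared slide 1, and NDMA animals 2 and 3 were on slide 2, so part of the treatment contrast lies between slides. Slide 2 held no water animals. A fit with the slide as a block therefore compares NDMA animal 1 alone with the water animals.

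Both pathways start from arachidonic acid, which phospholipases release from membranes. In the leukotriene branch, 5-lipoxygenase (Alox5), aided by its membrane partner FLAP (Alox5ap), makes the unstable leukotriene A4. Lta4h turns it into leukotriene B4, which attracts neutrophils, and Ltc4s joins it to glutathione to give leukotriene C4, the parent of the cysteinyl leukotrienes that act on Cysltr1. In the prostaglandin branch, the cyclooxygenases Ptgs1 and Ptgs2 make prostaglandin H2, Ptges and Ptgds turn it into prostaglandins E2 and D2, and Hpgd inactivates prostaglandins. Leukotriene enzymes are known mainly from leukocytes, whereas the kidney itself makes prostaglandin E2, which acts on salt transport and blood flow.

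Values are normalised log2 signals, that is, log2 of the processed signal minus that of the array's 75th percentile, so 0 stands for a probe at that percentile. They are comparable between animals for 1 probe, and not between probes. A probe was tested if each of the 3 arrays of either group showed it well above background. Of the 14 member probes, 11 were tested, for 9 of the 10 genes. The other 3, both probes of Cysltr1 and 1 of the 2 probes of Ptgs2, were well above background on none of the 6 arrays. In limma, with p adjusted over all 43118 probes tested, 3 of the 11 member probes passed a threshold of 0.05, where 2.99% of all probes did. Both Ltc4s probes were lower after NDMA, where 0.485% of all probes were called lower. The Alox5 probe was higher, where 2.5% of all probes were. Under normexp background correction the calls over all probes were 942 higher and 509 lower (64.9% higher), against 1080 and 209 (83.8% higher) here. The groups did not overlap in 6 of the 11 member probes, against 26.9% of all probes tested. With the slide as a block 0.19% of all probes passed, and 1 of the 11 member probes, Alox5.

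**Figure D1:**
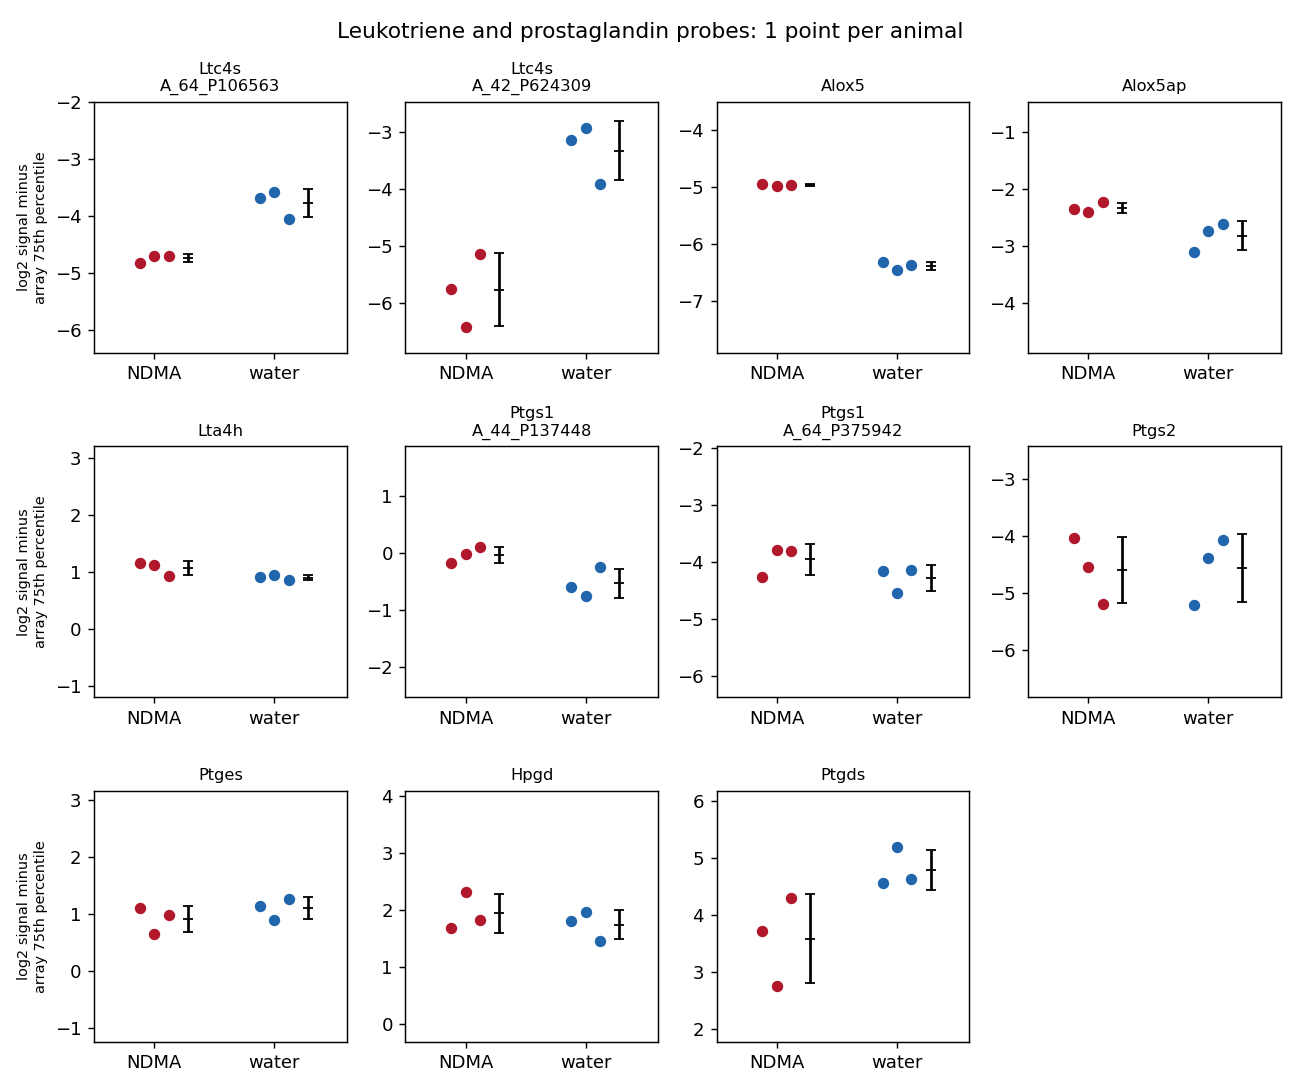
Normalised log2 signal (y axis, log2 of the processed signal minus that of the array's 75th percentile) of the 11 tested member probes, with 1 point per animal, NDMA in red and water in blue; bars are the mean and SD of 3 animals, and every panel spans the same number of log2 units. Both Ltc4s probes and Ptgds lie lower in all 3 NDMA animals than in any water animal, and Alox5 lies higher.

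Ltc4s, leukotriene C4 synthase, was lower in the cortex of NDMA-treated rats by both of its probes, which carry the same accession, NM_053639. The probe that was brighter on average over the 6 arrays, A_64_P106563, had normalised log2 values of -4.82, -4.70 and -4.70 in NDMA animals 1 to 3, against -3.69, -3.58 and -4.06 in water animals 1 to 3. The groups did not overlap, and the NDMA animals lay close together (SD 0.07, against 0.25 in water animals). Its level was 1.95-fold lower after NDMA (log2 difference -0.96 ± 0.14 SE, n = 3 per group, limma adjusted p = 0.0227).

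The other Ltc4s probe, A_42_P624309, had normalised log2 values of -5.77, -6.42 and -5.14 in NDMA animals, the second of them not well above background, against -3.14, -2.93 and -3.91 in water animals. Again all NDMA animals lay below all water animals, with the lowest value in NDMA animal 2. The log2 difference was -2.44 ± 0.38 SE (5.44-fold lower, limma adjusted p = 0.0282). This probe passed the filter only through the water group, in which it was high, so its fold rests in part on signal near background and its test is not independent of the filter. Normexp background correction, which shrinks the differences of dim probes, gave -0.62 and -1.22 for the brighter and the dimmer probe, and both passed (adjusted p = 0.0267 and 0.00468).

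The dimmer Ltc4s probe read the larger difference. Its signal relative to the brighter probe on the same array was -0.95, -1.72 and -0.44 log2 units in NDMA animals, against 0.54, 0.64 and 0.15 in water animals. The groups did not overlap in this within-array difference either, which was lower after NDMA by -1.48 log2 units. An exact two-sided permutation test over animals gave p = 0.1, the smallest that 3 against 3 animals allow. The same difference was -0.60 with normexp. Because the dimmer probe passed the filter only through the water group, this test is not independent of the filter and rests in part on signal near background. That probe is the dimmer by its average over the 6 arrays, and it was the higher of the 2 in every water animal.

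On slide 1, where NDMA animal 1 stood against the 3 water animals, the 2 Ltc4s probes differed by -1.05 and -2.44, against -0.96 and -2.44 over all animals. The slide 1 values rest on 1 NDMA animal, and the calls rest on few animals. The brighter probe's call was lost once slide entered as a block (adjusted p = 0.160) and when any animal but water animal 3 was left out, with adjusted p = 0.0615, 0.0785 and 0.0762 without NDMA animals 1, 2 and 3, and 0.0877 and 0.0629 without water animals 1 and 2. The dimmer probe's call was lost once slide entered as a block (adjusted p = 0.230), without NDMA animals 1 and 2 (0.0705 and 0.0752) and without water animals 1 and 2 (0.0996 and 0.0882).

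The 5 named genes whose signal followed that of the brighter Ltc4s probe most closely over the 6 arrays were sought among the brightest probes of 12174 other genes, each centred on its mean in water animals. Casq1, a calcium-binding protein of the sarcoplasmic reticulum, was the closest, with a root mean square difference of 0.07 log2 units. Its normalised log2 signals were -0.19, 0.10 and -0.06 in NDMA animals, against 1.07, 1.13 and 0.58 in water animals. The next were Or4p7 (0.15), an olfactory receptor gene well above background in only 1 NDMA animal, Galnt16 (0.15), a glycosyltransferase, Igfbp4 (0.16), which binds insulin-like growth factors, and Amdhd2 (0.18), an enzyme of amino sugar breakdown. Their log2 differences ran from -0.98 to -0.78, which their choice by likeness to Ltc4s fixes. The list is a description over 6 arrays that fall into 2 groups.

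Alox5, the lipoxygenase that starts leukotriene synthesis, was higher after NDMA. Its single probe had normalised log2 values of -4.96, -4.99 and -4.97 in NDMA animals, against -6.32, -6.47 and -6.38 in water animals. The NDMA animals lay close together (SD 0.02, against 0.07 in water animals) and all above the water animals. The log2 difference was 1.42 ± 0.08 SE (2.68-fold higher, adjusted p = 0.00294), and 1.44 on slide 1 alone. The call was kept in each of the 6 fits without 1 animal. With the slide as a block the difference was the same 1.44, from the same NDMA animal, so it is not a separate check. The probe was well above background on all 3 NDMA arrays and on 1 of the 3 water arrays. It therefore passed the filter only through the group in which it was high, its fold rests on water signals near background, and its test is not independent of the filter. With normexp background correction its difference was 0.27 (adjusted p = 0.147).

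Alox5 and Ltc4s were the members that passed, and they moved in opposite directions, so the 250 bases before each gene's start are shown, 5′ to 3′ on the gene's strand, from RefSeq assembly GRCr8. The Ltc4s stretch lies at chr10:35063595-35063844 on the minus strand and the Alox5 stretch at chr4:151251127-151251376 on the minus strand. Capitals mark matches, on either strand, to the GC box GGGCGG, the TATA box TATAAA, the CCAAT box, the gamma-activated site TTCNNNGAA or the core GAGGAA bound by the myeloid factor PU.1.
Ltc4s: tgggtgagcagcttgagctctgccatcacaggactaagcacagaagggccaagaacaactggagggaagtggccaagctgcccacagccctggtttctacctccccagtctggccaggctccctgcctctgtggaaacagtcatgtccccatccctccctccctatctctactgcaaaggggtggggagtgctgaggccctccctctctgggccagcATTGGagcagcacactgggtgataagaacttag
Alox5: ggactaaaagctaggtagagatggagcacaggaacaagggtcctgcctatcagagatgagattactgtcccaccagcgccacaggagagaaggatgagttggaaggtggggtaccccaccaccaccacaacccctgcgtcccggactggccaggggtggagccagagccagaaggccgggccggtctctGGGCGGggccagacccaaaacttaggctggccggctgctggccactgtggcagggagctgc
The Ltc4s stretch held 1 match, a CCAAT box on the opposite strand 33 to 29 bases before the start, which 34.0% of the 33469 promoters in the table hold in the same window. The Alox5 stretch held 1 GC box, 61 to 56 bases before the start, which 30.5% of promoters hold. The TATA box, found in 12.9% of promoters, the gamma-activated site, in 7.67%, and the GAGGAA core, in 23.3%, were in neither. The GC content was 58.8% for Ltc4s and 62.8% for Alox5, where the median promoter had 51.2%. A match describes letters in this window only.

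Of the other leukotriene members, Alox5ap, the partner of 5-lipoxygenase, had normalised log2 values of -2.35, -2.40 and -2.24 in NDMA animals, against -3.11, -2.74 and -2.61 in water animals. The groups did not overlap, but the difference of 0.49 ± 0.14 did not pass (adjusted p = 0.156). It was 0.47 on slide 1 alone, and it passed with normexp and quantile normalisation (0.46, adjusted p = 0.0497). Lta4h, the hydrolase that makes leukotriene B4, had 1.15, 1.13 and 0.92 in NDMA animals, against 0.90, 0.95 and 0.86 in water animals. The groups overlapped, and the difference was 0.16 ± 0.09 (adjusted p = 0.391). For Cysltr1, the receptor of the cysteinyl leukotrienes, no level can be compared. Its 2 probes lay between -8.30 and -6.94 in NDMA animals and between -8.18 and -7.38 in water animals, all not well above background.

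**Figure D2:**
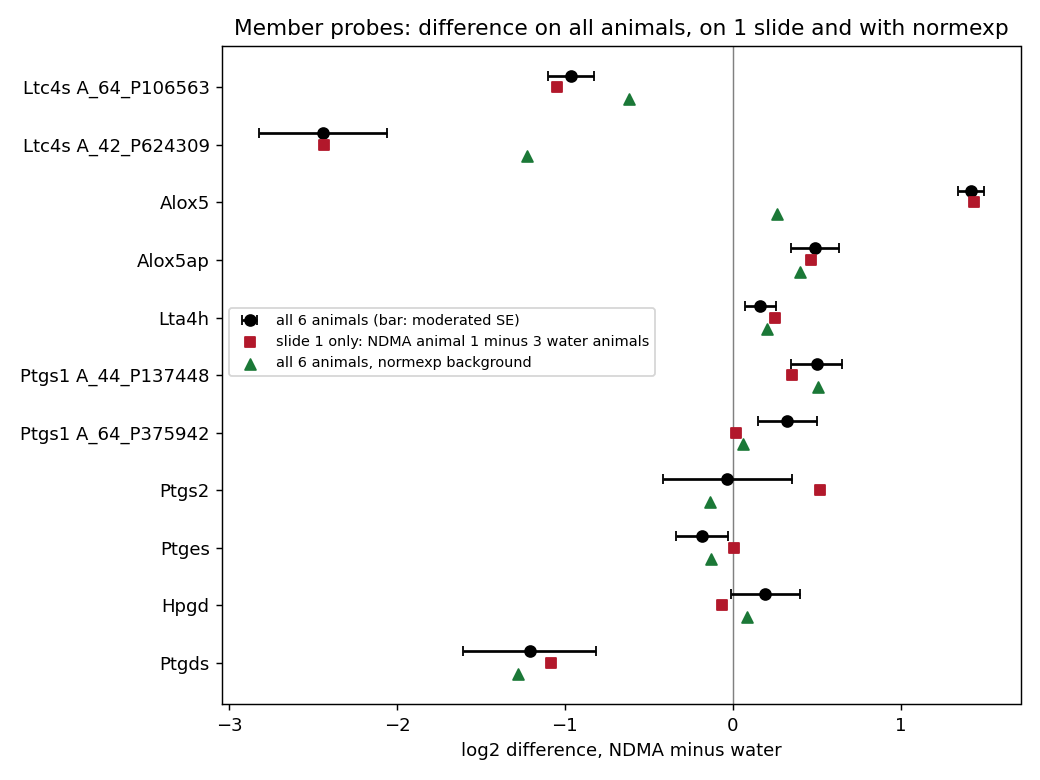
Log2 difference, NDMA minus water (x axis), of the 11 tested member probes over all 6 animals with the moderated SE (black), on slide 1 alone, where NDMA animal 1 stands against 3 water animals (red), and over all animals after normexp background correction (green). The Ltc4s probes lie at -0.96 and -2.44 and move to -0.62 and -1.22 with normexp, and Alox5 moves from 1.42 to 0.27, whereas Ptgds stays between -1.28 and -1.08.

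None of the prostaglandin members passed in limma. Ptgds, the lipocalin-type synthase of prostaglandin D2, which also carries lipophilic molecules, had the largest of their differences. Its normalised log2 signals were 3.72, 2.76 and 4.30 in NDMA animals, against 4.57, 5.21 and 4.63 in water animals. All NDMA animals lay below all water animals, NDMA animal 2 by far and NDMA animal 3 by a smaller step. The log2 difference was -1.21 ± 0.39 SE (adjusted p = 0.190), and -1.08 on slide 1 alone. It was -0.79 without NDMA animal 2 and -1.56 without NDMA animal 3, and -1.28 with normexp.

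The 2 probes of Ptgs1, the cyclooxygenase that most tissues make constantly, both had positive differences without passing. The brighter, A_44_P137448, had normalised log2 values of -0.19, -0.02 and 0.09 in NDMA animals, against -0.61, -0.76 and -0.25 in water animals. Its groups did not overlap, with water animal 3 close to NDMA animal 1, and its difference was 0.50 ± 0.15 (adjusted p = 0.167). The dimmer, A_64_P375942, had -4.26, -3.79 and -3.80 in NDMA animals, against -4.15, -4.54 and -4.14 in water animals. Here NDMA animal 1 lay among the water animals, and the difference was 0.33 ± 0.17 (adjusted p = 0.370). On slide 1 alone the 2 probes differed by 0.35 and 0.02. The within-array difference between these probes, dimmer minus brighter, changed by -0.18 log2 units after NDMA (exact two-sided permutation p = 0.4, smallest possible 0.1).

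Ptgs2, the inducible cyclooxygenase, which in the renal cortex is known from the macula densa, varied widely within both groups. Its tested probe had normalised log2 values of -4.04, -4.56 and -5.19 in NDMA animals, against -5.23, -4.40 and -4.07 in water animals. The ranges nearly coincided, and the difference was -0.03 ± 0.38 (adjusted p = 0.972), with 0.52 on slide 1 alone. Ptges, the inducible synthase of prostaglandin E2, had 1.11, 0.66 and 0.99 in NDMA animals, against 1.15, 0.89 and 1.27 in water animals, a difference of -0.18 ± 0.15 (adjusted p = 0.556). Hpgd, which oxidises prostaglandins and ends their action, had 1.69, 2.32 and 1.83 in NDMA animals, against 1.81, 1.97 and 1.47 in water animals, a difference of 0.20 ± 0.20 (adjusted p = 0.637). The groups overlapped in both genes, and on slide 1 alone the differences were 0.01 for Ptges and -0.06 for Hpgd.

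Around these members, a wider list of 53 genes of eicosanoid metabolism and signalling was read by each gene's brightest probe. A probe was found for 49 of them and tested for 44. After NDMA 3 of the 44 were higher and 0 were lower, where 4.05% of the 12175 named genes tested so passed, 3.56% higher and 0.485% lower. At an unadjusted p under 0.05 there were 16 of 44, where 20.1% of the named genes passed. The median log2 difference of the list was -0.01, against -0.04 over all named genes, with 21 genes above 0 and 23 below.

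The genes that rose were 1 phospholipase and 2 of the prostanoid synthase list. Pla2g2d, a secreted phospholipase known from dendritic cells and macrophages in mice, had normalised log2 values of -1.36, -1.10 and -0.06 in NDMA animals, against -3.61, -3.32 and -3.75 in water animals. The groups were far apart, and the log2 difference was 2.72 ± 0.34 (6.59-fold, adjusted p = 0.0141). The call was lost only without water animal 1 (0.0577) among the fits without 1 animal. Tbxas1, thromboxane synthase, which platelets and macrophages contain, had 0.30, 0.23 and 0.28 in NDMA animals, against -0.87, -0.49 and -0.53 in water animals. Its log2 difference was 0.90 ± 0.12 (1.86-fold, adjusted p = 0.0179), and its call was lost without NDMA animals 1, 2 and 3 (0.0528, 0.0633 and 0.0692).

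Akr1b10, an aldo-keto reductase, had 1.16, 1.65 and 1.36 in NDMA animals, against 0.42, 0.55 and 0.14 in water animals. The groups did not overlap, and its log2 difference was 1.02 ± 0.16 (2.03-fold, adjusted p = 0.0315). Another Akr1b10 probe differed by only 0.19 ± 0.15 (adjusted p = 0.525). The call was kept only without NDMA animal 1 among the fits without 1 animal, and the adjusted p was 0.0833 and 0.0957 without NDMA animals 2 and 3, and 0.0993, 0.0627 and 0.0770 without water animals 1, 2 and 3. With the slide as a block none of the 3 genes passed (0.141 for Pla2g2d, 0.158 for Tbxas1 and 0.276 for Akr1b10).

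**Figure D3:**
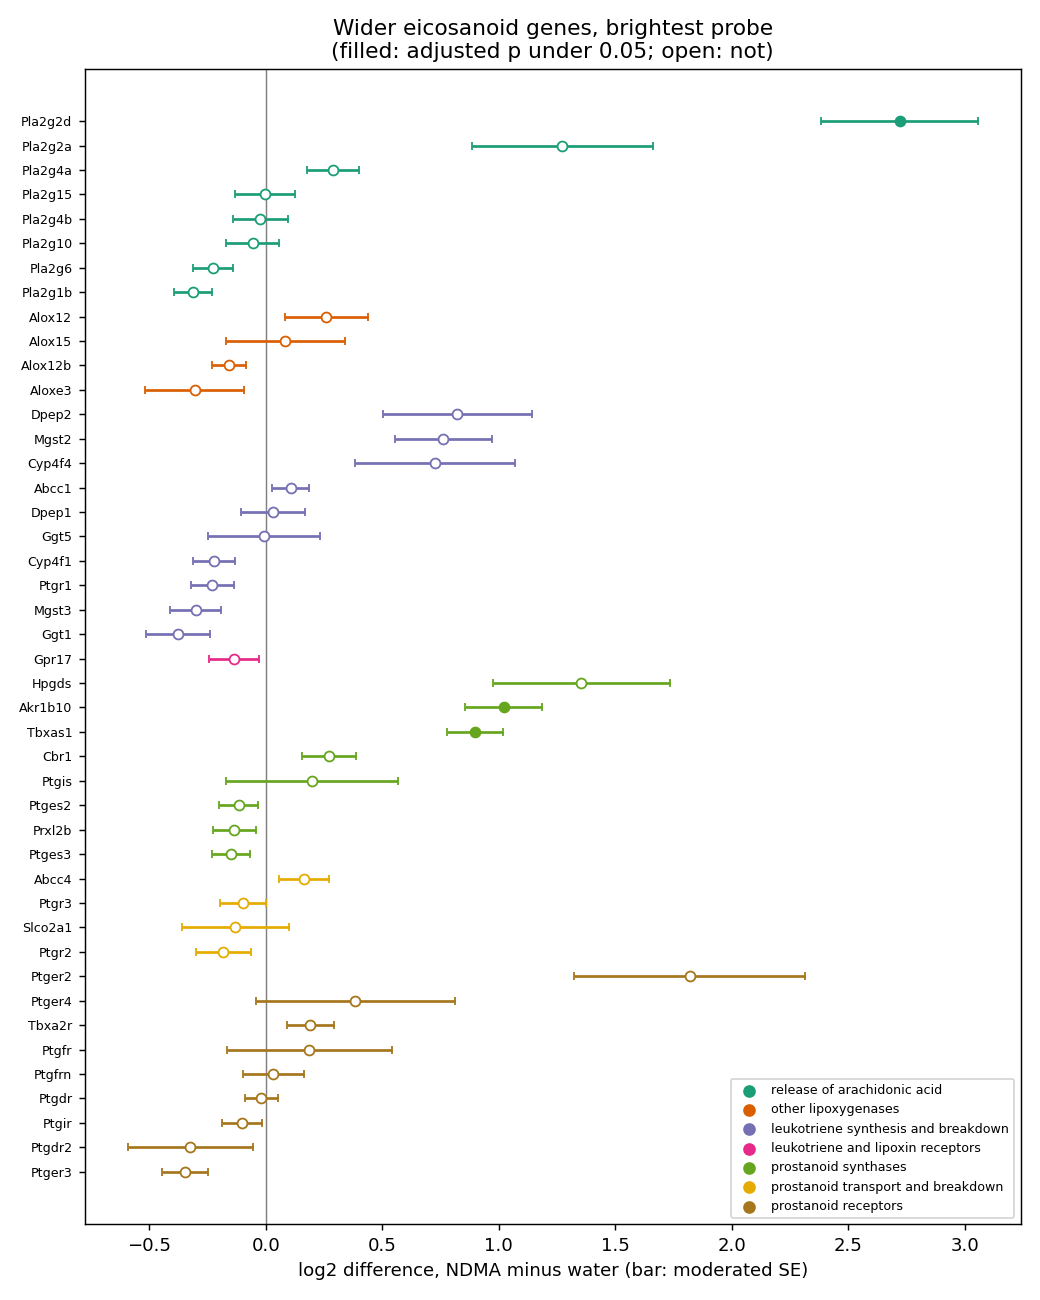
Log2 difference, NDMA minus water (x axis, with the moderated SE), of the 44 tested genes of the wider eicosanoid list, each by its brightest probe and coloured by role; filled points passed an adjusted p of 0.05 and open points did not. The filled points are Pla2g2d at 2.72, Akr1b10 at 1.02 and Tbxas1 at 0.90, and the other 41 genes lie between -0.38 and 1.82.

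Among the phospholipases that release arachidonic acid, 1 of 8 tested rose. Pla2g4a, the cytosolic phospholipase that feeds both branches, differed by 0.29 ± 0.11 (adjusted p = 0.250). None of the 4 other lipoxygenases tested passed, and their differences ran from -0.31 to 0.26. None of the 10 tested genes of leukotriene synthesis and breakdown passed either. Mgst2, a microsomal glutathione transferase that can also make leukotriene C4, had normalised log2 values of -3.66, -3.70 and -4.36 in NDMA animals, against -4.65, -4.85 and -4.50 in water animals. Its groups did not overlap and its difference, 0.76 ± 0.21, was opposite in sign to that of Ltc4s and did not pass (adjusted p = 0.135). It passed without NDMA animal 3 (0.99, adjusted p = 0.0448). Ggt1, which cleaves leukotriene C4 to D4, differed by -0.38 ± 0.14 (adjusted p = 0.230).

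Most of the listed leukotriene and lipoxin receptors could not be tested. Cysltr2 was not well above background on any array, and Ltb4r, the receptor of leukotriene B4, was well above background on 2 NDMA arrays and on 0 water arrays, so neither was tested. Ltb4r2 was well above background on 0 arrays. Gpr17, an orphan receptor related to the cysteinyl leukotriene receptors, was well above background on all 6 arrays and differed by -0.14 ± 0.11 (adjusted p = 0.523). Of the 8 tested genes of the prostanoid synthase list 2 rose, Tbxas1 and, by 1 of its 2 probes, Akr1b10, as described above. Hpgds, the haematopoietic synthase of prostaglandin D2, had normalised log2 values of -4.95, -4.61 and -4.50 in NDMA animals, against -6.93, -5.76 and -5.43 in water animals. Its groups did not overlap, but its difference of 1.35 ± 0.38 did not pass (adjusted p = 0.143). It was well above background on 1 water array, so it entered the test only through the NDMA group, in which it was high. With normexp the difference was 0.22. Ptgis, prostacyclin synthase, differed by 0.20 ± 0.37 (adjusted p = 0.801).

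None of the 4 genes of prostanoid transport and breakdown passed, and Slco2a1, the prostaglandin transporter, differed by -0.13 ± 0.23 (adjusted p = 0.790). None of the 9 tested prostanoid receptors passed. Ptger2, a receptor of prostaglandin E2, had normalised log2 values of -4.15, -4.50 and -4.73 in NDMA animals, against -5.74, -5.63 and -7.47 in water animals. All NDMA animals lay above all water animals, the widest step being to water animal 3. Only 1 water array was well above background, so Ptger2 entered the test only through the NDMA group, in which it was high. The difference was 1.82 ± 0.50 (adjusted p = 0.133). With normexp it was 0.32 (adjusted p = 0.140), and of the alternatives run it passed only with normexp and quantile normalisation (0.0356). The other receptors of prostaglandin E2 that were tested, Ptger3 and Ptger4, differed by -0.35 ± 0.10 and 0.38 ± 0.43 (adjusted p = 0.144 and 0.657).

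Some marker lists of leukocytes were higher after NDMA and others were not. Over all named genes tested, 3.56% were called higher and 0.485% lower, the shares to set beside the counts of each list. Of 10 tested genes of macrophages and dendritic cells 8 rose and 0 fell, and the mean over the list lay between 0.89 and 1.19 above the water mean in NDMA animals, against -0.26 to 0.17 in water animals. With the slide as a block their differences ran from 0.45 to 1.32 and none of the 8 passed in limma (adjusted p = 0.0852 to 0.285, all 8 at an unadjusted p under 0.05). Adgre1 and Itgam overlapped between groups and did not pass (0.15 and 0.81, adjusted p = 0.664 and 0.498). Cd163, well above background on 0 NDMA arrays and 2 water arrays, was not tested. All 5 tested T cell genes rose, with list means between 1.70 and 1.93 in NDMA animals, against -0.31 to 0.30 in water animals. With the slide as a block these 5 differed by 1.16 to 2.35, and none passed (adjusted p = 0.0525 to 0.196, all 5 at an unadjusted p under 0.05). Of these genes Cd3e passed the filter only through the NDMA group, being well above background on 2 water arrays. It differed by 2.51, and by 1.06 with normexp. Of 7 tested mast cell genes 2 rose, with list means of 0.81 to 1.76 in NDMA animals, against -0.23 to 0.14 in water animals. Both genes that rose, Mcpt1 and Cma1, passed the filter only through the NDMA group, being well above background on 2 and 0 water arrays, and neither passed once slide entered as a block (adjusted p = 0.161 and 0.163). Cpa3, on 0 water arrays, also entered the test only through the NDMA group, and it did not pass (adjusted p = 0.121). The list means rest largely on Mcpt1, Cma1 and Cpa3, which differed by 3.79, 3.10 and 2.22. With normexp these differences were 2.13, 0.73 and 0.60. Kit, Tpsb2 and Tpsab1, well above background on all arrays, differed by 0.23, 0.09 and -0.18. Hdc, also well above background on all arrays, differed by 0.79 without overlap between groups and did not pass (adjusted p = 0.0525). Ms4a2 was not well above background on any array, and Fcer1a was on 2 NDMA arrays and on 0 water arrays. None of the 3 tested neutrophil genes passed, Elane was not well above background on any array, and the list means were -0.21 to 0.10 in NDMA animals, against -0.73 to 0.87 in water animals. None of the 3 platelet genes passed, with list means of 0.09 to 0.21 in NDMA animals, against -0.12 to 0.12 in water animals.

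Of 6 proximal tubule genes 1 fell, Lrp2 (-0.57, adjusted p = 0.0439), where 0.485% of all named genes tested were called lower. Its call was lost with the slide as a block (0.364), with the replicate block (0.136) and in each of the 6 fits without 1 animal (0.0577 to 0.141). The list means were -0.44 to -0.23 in NDMA animals, against -0.04 to 0.06 in water animals. This was not particular to the proximal tubule. The collecting duct list had means of -0.44 to -0.17 in NDMA animals, against -0.13 to 0.12 in water animals, and none of its 4 genes passed. The podocyte list went the other way, with 0.10 to 0.22 in NDMA animals, against -0.17 to 0.13 in water animals, and none of its 3 genes passed. The part of these lists in the differences of Alox5, Ltc4s and the wider pathway was not tested. In whole cortex, fewer cells of a type and less RNA per cell cannot be told apart. All 6 proximal tubule genes were well above background on every array. So were Slc14a2 and Aqp4 of the inner medulla list, so these readings do not tell cortex from other parts of the kidney.

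**Figure D4:**
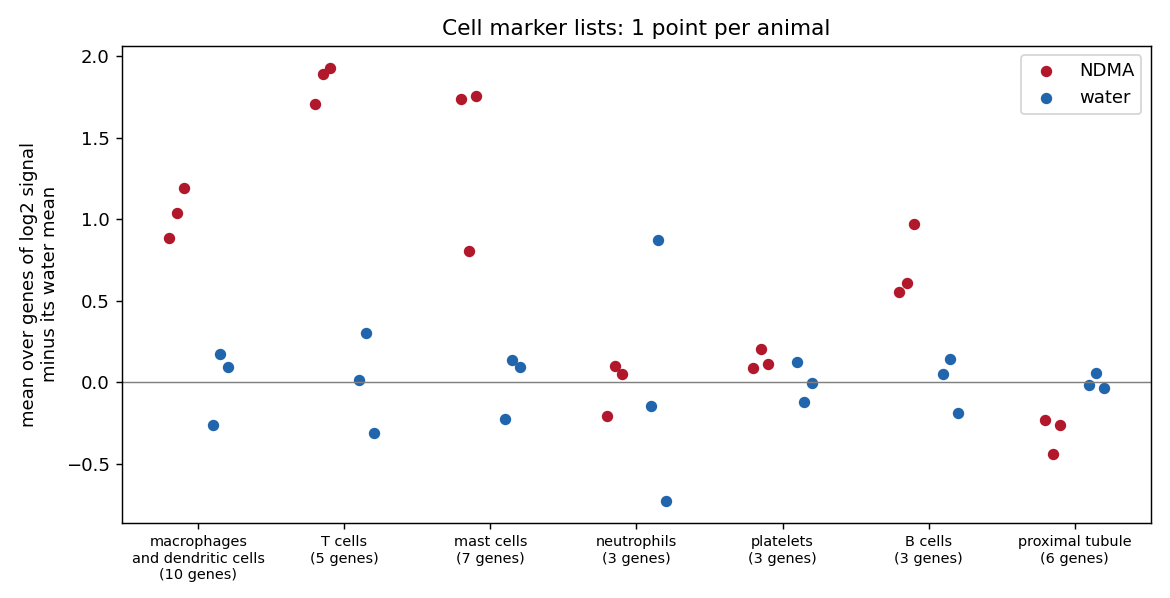
Mean over the tested genes of each cell marker list of the normalised log2 signal minus the gene's mean in water animals (y axis), with 1 point per animal, NDMA in red and water in blue. Macrophage and dendritic cell, T cell and mast cell lists lie between 0.81 and 1.93 in NDMA animals, neutrophil and platelet lists overlap between groups, and the proximal tubule list lies between -0.44 and -0.23 in NDMA animals. The mast cell means rest largely on Mcpt1, Cma1 and Cpa3, which passed the filter only through the NDMA group.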

How the data were processed

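The authors read spot intensity from 1-colour arrays with Agilent Feature Extraction. Its version is 10.7.1.1 per the file headers, and the submitters' processing notes give 10.7. Within each array the deposited intensity had already been corrected for background and spatial trend, and the file headers name no scaling between arrays. The authors' deposited ratio per probe matched this intensity divided by the array's 75th percentile within 0.00174 log2 units. The ratio's column medians were 0.115, 0.112 and 0.114 for NDMA and 0.112, 0.110 and 0.114 for water. The authors' deposited flags mark saturated, outlying and well-above-background spots. The arrays' annotation names an older genome build than GRCr8, whose RefSeq table named 27460 probes by accession.

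From the processed intensity, log2 minus the array's 75th percentile over 61657 non-control probes was computed (percentile 993 to 1310), 43016 to 46248 probes per array being well above background. Outlier spots were left out, 18 values among the probes tested and 0 among the members. The test was limma 3.58.1 (R 4.3.3), two-sided, with Benjamini-Hochberg adjustment over 43118 probes, and the script was tested on simulated data. There it recovered 20.9% of 1.5-fold, 47.8% of 2-fold and 84.8% of 4-fold changes. A probe that did not pass can therefore still have changed. Each probe was fitted alone, and genes of the lists were read by their brightest probe. The number of arrays limits the precision. The files hold the median spot signal, so normexp (offset 50) used it. Alternatives covered scaling, background, filters, variance model, slide, replicate number and each animal left out. Every member probe was described. From the wider list, genes that passed and 13 set by name were given, and Gpr17 and Ltb4r2 outside that rule. A few more genes were chosen after their values were seen, among them Lrp2 and the mast cell and neutrophil markers of the cell marker lists. Ptger1, one of the 13, had no probe matched by name. The 5 genes most like Ltc4s were taken by root mean square difference. Members and lists were chosen with earlier results of these data known, the fall of Ltc4s among them.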

Additional observations from a re-analysis of the deposited data

How the results depend on the processing

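Over all probes, the count of 1289 calls became 488 with no filter on dim probes, 511 with the replicate number as a block, 82 with the slide as a block and 0 on slide 1 alone, where limma gave 4667 at an unadjusted p under 0.05, and ran from 464 to 987 without 1 animal (464 without water animal 1, 500 and 593 without NDMA animals 3 and 2, 692 and 707 without water animals 2 and 3). The count of 3 member probes became 1 with no filter, with only probes well above background on all 6 arrays, with the slide as a block and with the replicate block, and 0 on slide 1 alone (4 at an unadjusted p under 0.05); without 1 animal it ran from 1 to 3. It was 1 without NDMA animals 1 and 2 and water animals 1 and 2. The count of 3 wider genes became 1 with no filter and 0 with the slide as a block, on slide 1 alone and with the replicate block (6, 6 and 15 at an unadjusted p under 0.05), and ran from 1 to 3 without 1 animal, with 1 without NDMA animal 2 and without water animal 1.

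Replicate numbers do not pair the animals in the labels, and same-numbered animals did not deviate together (correlations over probes of 0.02, -0.05 and 0.01). Under the replicate block both Ltc4s calls were lost (adjusted p = 0.0759 and 0.120) and Alox5 kept its call (0.0334). Both Ltc4s calls were also lost with no filter (0.0690 and 0.0789), and that of the brighter probe with normexp and quantile normalisation (0.0532). Over 194 results of single member probes under an alternative, 163 kept direction and side of the threshold, 20 lost a call, 1 gained one and 10 changed sign. The slide as a block and slide 1 alone give the same difference for each member probe, from 1 NDMA animal, and were counted separately here. The sign changes concern Ptgs2 (0.0047 with normexp and quantile normalisation, 0.52 with the slide as a block and on slide 1 alone, -0.36 to 0.27 without 1 animal), Ptges (0.0054 with the slide as a block and on slide 1 alone) and Hpgd (-0.063 in the same settings), whose causes were not tested. Both Ltc4s probes, Alox5, Alox5ap, Lta4h, Ptgs1 and Ptgds kept their direction in every alternative run. The within-array difference of the Ltc4s probes was -0.60 with normexp and -0.59 with normexp and quantile normalisation, and that of the Ptgs1 probes was -0.45 and -0.35. Signal near background limits Alox5, the dimmer Ltc4s probe, Cysltr1, Hpgds, Ptger2, Cysltr2, Ltb4r and Ltb4r2.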

Other observations

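The genes beside Ltc4s on its chromosome in the RefSeq table were looked up after the data were examined. Of the 3 protein-coding genes on either side, 4 had a tested probe. Mgat4b, the nearest on one side, differed by -0.13 ± 0.09, Sqstm1 by -0.16 ± 0.11 and Mrnip by -0.17 ± 0.10, and on the other side Canx by 0.04 ± 0.08 (log2, NDMA minus water, limma adjusted p = 0.457, 0.459, 0.391 and 0.809). None of the 4 passed.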
